A study of Mus musculus with 6 samples.

Results

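The replication-dependent histone genes are the gene copies that supply new histone protein while DNA is copied. They were chosen by name, as every gene in the files whose symbol starts with Hist1h, Hist2h, Hist3h or Hist4h, which gave 67 genes of 32285. Of these, 6 encode the linker histone H1 and 61 encode core histones: 18 H2A, 18 H2B, 12 H3 and 13 H4 genes. On mouse build GRCm38, 54 of the 67 lie on chromosome 13 between positions 21715763 and 23934851, 10 on chromosome 3, 2 on chromosome 11 and 1 on chromosome 6. The cells came from mice carrying tumors of EMT6, a mouse mammary carcinoma line. The mice were either labelled deficient for Cysltr1, a receptor for cysteinyl leukotrienes, with no strain given, or were BALB/c mice labelled WT. There were 6 single-cell libraries, 1 for each of 3 tissues and 2 genotypes, and each was made from a pool of 3 mice. Marrow cells had been enriched for hematopoietic progenitors, and spleen and tumor cells for CD45, the pan-leukocyte antigen. With 1 library per tissue and genotype there is no replicate. All differences below compare libraries or cells within a library, without a p-value, and the 95% intervals cover counting error only.

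Core histones form the protein spool around which DNA is wrapped, and H1 binds the DNA that enters and leaves that spool. Cells need new histones chiefly in S phase, when the genome is copied, and the mRNAs of these genes normally accumulate then. Most of these mRNAs end in a short stem-loop rather than a poly(A) tail. The stem-loop is bound by the protein Slbp, and the mRNA is degraded when DNA synthesis stops. Some members can also give polyadenylated mRNAs. Droplet kits of the kind used here start cDNA synthesis from poly(A), so the unique molecular identifiers (UMIs, counts of captured molecules) of these genes are not a measure of total histone mRNA.

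The stem-loop is shown first because it is the sequence that sets this family apart. A 6-base stem beginning with GG and ending with CC, around a 4-base loop, was looked for on the transcript strand. The first loop base had to be T, and the transcripts were those of GENCODE for the files' build. Such a stem-loop was present in transcripts of 46 of the 67 genes, or 68.7%, and of 461 of 21901 genes with a coding transcript, or 2.10%. The commonest form was shared by 26 members, a form of 7 members carried C and G pairs in place of T and A in the stem, and a form of 6 members had another loop. Capitals mark the stem-loop in each line, written 5′ to 3′ as DNA on the transcript strand.
Hist1h2ae: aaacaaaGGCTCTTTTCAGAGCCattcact
Hist1h1e: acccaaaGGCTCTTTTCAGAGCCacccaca
Hist1h1c: tccaaaaGGCTCTTTTCAGAGCCaccactc
Hist1h4d: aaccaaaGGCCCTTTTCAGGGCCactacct
Hist1h3e: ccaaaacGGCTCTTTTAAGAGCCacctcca
Hist1h3g: ctttaaaGGCTCTTCTTAGAGCCacccatc
Hist1h2ae, Hist1h1e and Hist1h1c carried the same 16 bases, although their levels in dividing and other cells differed widely, as described below. The annotated transcripts of Hist1h1b and Hist1h1a, a pair of abundant linker genes, held no such stem-loop. A stem-loop beyond an annotated end would not have been found.

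Libraries held 40377940 to 75873784 UMIs over all barcodes, and 35752516 to 69256447 in the 5011 to 8307 cells kept, with a median of 2580 to 12800 UMIs per kept cell. Cysltr1, the targeted gene, went against the labels in marrow, at 4.75 UMIs per 1000000 (CPM) in the library labelled WT and 24.7 in that labelled KO, and in spleen, at 6.92 and 33.1 CPM. In tumor it was at 9.66 and 7.50 CPM. The genotype of each library is therefore given throughout as labelled. Pairs of libraries shared 46 to 128 cell barcodes, at most 1.43% of the smaller library. Several tumor clusters were near 0 for Ptprc, which encodes CD45. The cluster led by Acta2 and Myl9, the largest in the tumor library labelled WT with 1507 cells, had 3.54 CPM of Ptprc and 118 CPM of the keratin gene Krt18, against 256 CPM of Ptprc in the cluster led by C1qb.

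A few genes held most of the histone signal. The 67 genes had 268087 UMIs in kept cells of the 6 libraries, and the core gene Hist1h2ae alone had 85327 of them, or 31.8%. The linker genes Hist1h1b, with 37266 UMIs, and Hist1h1e, with 31795, came next, and these 3 genes together held 57.6%. The 6 linker genes held 38.4% of all histone UMIs. No UMI was counted for 2 members, 4 had 1 to 9 UMIs and 14 had at least 10 but under 200. The 40 members with at least 200 UMIs in marrow and tumor held 98.8% of the signal and are those named below. The lowest of them had 247 UMIs and the highest member left out had 178. Near-identical copies are hard to separate: 7 members had under 10% of their 90-base windows unique among annotated transcripts, and of these Hist1h2ap, with 6603 UMIs, was the only abundant one. Hist1h1e and Hist1h2be overlap on the same strand, and Hist1h2ae overlaps the gene Gm44394 on the opposite strand, so their counts are uncertain to that extent. UMIs are not scaled by transcript length, and levels of different genes are not ranked against each other beyond these UMI shares.

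Dividing cells were called cycling when they had at least 1 UMI of Mki67 and Top2a summed. Mki67 encodes a proliferation antigen, and Top2a a topoisomerase that untangles DNA before mitosis. In every library histone genes made up a larger share of the UMIs of cycling cells than of other cells. Summed over the 67 genes, marrow had 1963 CPM in cycling and 576 CPM in other cells of the library labelled WT, and 1934 and 414 CPM in that labelled KO. Spleen had 1812 and 309 CPM labelled WT, and 1288 and 278 CPM labelled KO. Tumor had 430 and 209 CPM labelled WT, and 447 and 223 CPM labelled KO. Cycling tumor cells were thus close to the level of marrow cells that were not called cycling, and far below cycling marrow and spleen cells. The ratio of cycling to other cells was 3.41 and 4.67 (marrow), 5.86 and 4.63 (spleen) and 2.06 and 2.002 (tumor), labelled WT first. Cycling cells were also the deeper cells, with a median of 15746 UMIs against 5575 in marrow labelled WT and 6706 against 1930 in tumor labelled WT. At a matched depth of 2000 UMIs per cell, with shallower cells left out, the ratios were 2.73 and 4.02 (marrow), 5.88 and 4.16 (spleen) and 2.41 and 2.74 (tumor). Hist1h2ae carried part of the difference. Without it the unthinned ratios were 2.65 and 3.51 (marrow), 4.26 and 3.54 (spleen) and 1.78 and 1.69 (tumor).

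**Figure D1:**
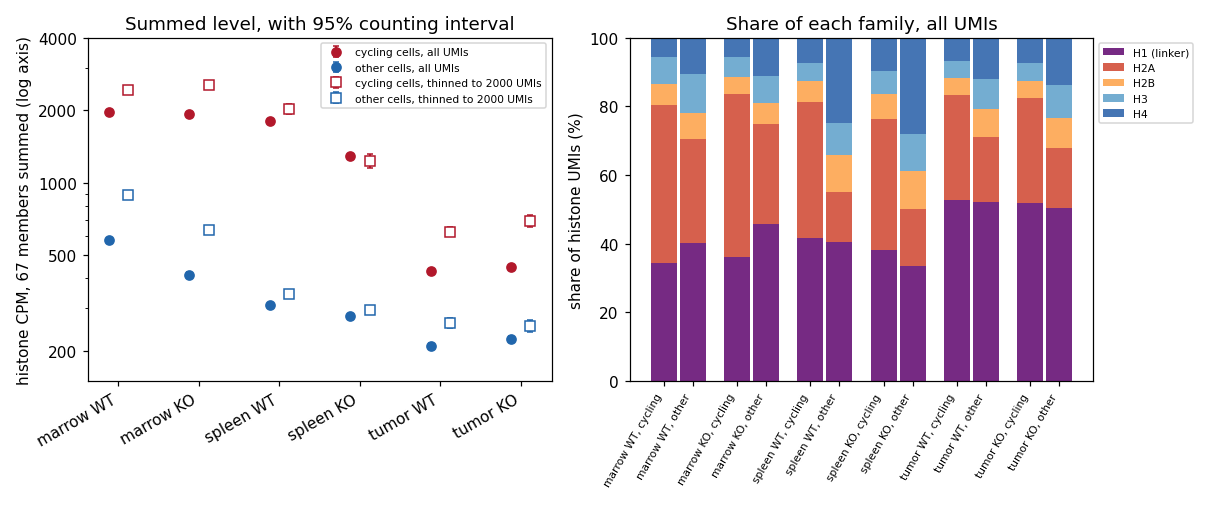
Left, summed CPM of the 67 histone genes (log axis) in cycling and other cells of each library, from all UMIs and at 2000 UMIs per cell, with 95% counting intervals; cycling cells were above other cells in each library, and tumor was lowest. Right, share of histone UMIs (%) held by each family: H2A held 45.9% in cycling against 30.3% in other marrow cells labelled WT, and H1 held over 50% in all 4 tumor bars.

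The families did not share the difference equally. H2A had the highest ratio of cycling to other cells in each of the 6 libraries, at 5.16 and 7.57 (marrow), 15.7 and 10.7 (spleen) and 3.37 and 3.45 (tumor). Hist1h2ae held 85327 of the 108537 H2A UMIs, so the H2A ratio is largely that of a single gene. The rank of H2A without Hist1h2ae was not tested. With all UMIs, the H2B, H3 and H4 genes of tumor had summed ratios of 1.24, 1.14 and 1.18 labelled WT, and 1.14, 1.12 and 1.08 labelled KO. In marrow the same families ran from 1.84 for H4 to 2.91 for H2B labelled WT, and from 2.28 to 3.86 labelled KO. This contrast between the tissues depended on depth. At 2000 UMIs per cell the tumor ratios of H2B, H3 and H4 were 1.95, 1.54 and 1.85 labelled WT, and 2.21, 2.41 and 1.60 labelled KO. Those of marrow were 2.37, 2.53 and 1.99 labelled WT, and 3.86, 3.69 and 2.60 labelled KO. At matched depth these families were thus higher in cycling cells of tumor too. H2A kept the highest ratio at that depth, from 2.90 in tumor labelled WT to 14.5 in spleen labelled WT. The H1 ratios were 2.91 and 3.69 (marrow), 6.03 and 5.27 (spleen) and 2.07 and 2.06 (tumor) with all UMIs.

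Gene by gene, a 2-fold difference in CPM was used as the call, among genes with at least 30 UMIs over both cell groups. In marrow, 41 of 58 members were at least 2-fold higher in cycling cells labelled WT, where 5.13% of all genes tested were, and 38 of 47 labelled KO, where 8.06% were. In spleen the counts were 29 of 43 (8.43% of all genes) and 23 of 40 (7.26%). In tumor they were 11 of 38 (3.03%) and 14 of 35 (3.65%). With all UMIs most tested members of marrow and spleen were thus above the call, and most tested members of tumor were not. At least 2-fold lower in cycling cells were 0 members in marrow (10.5% and 9.8% of all genes) and tumor (3.09% and 3.67%), 1 in spleen labelled WT (13.9%) and 2 in spleen labelled KO (7.2%). At 2000 UMIs per cell 27 of 37 (3.91%) and 30 of 33 (5.89%) members of marrow were higher, 18 of 28 (7.57%) and 11 of 24 (6.83%) of spleen, and 10 of 16 (5.36%) and 8 of 14 (5.51%) of tumor. At matched depth most tested members of tumor were thus above the call, among fewer members that could be tested. The median member ratio was 2.84 and 3.45 (marrow), 4.04 and 3.39 (spleen) and 1.31 and 1.44 (tumor), against 0.903 to 1.14 for all genes. Of 32 members tested in all 6 libraries, 7 were above the call in each: Hist1h2ae, Hist1h1b, Hist1h1d, Hist1h1a, Hist1h2ap, Hist1h2ak and Hist1h3g. With all UMIs 5 members were above it in none: Hist1h1c, Hist1h4i, Hist1h4h, Hist1h2bc and Hist1h2be. The filter left out 9 to 32 members per library. A gene could pass it through cycling cells alone, so these counts describe the abundant members only.

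**Figure D2:**
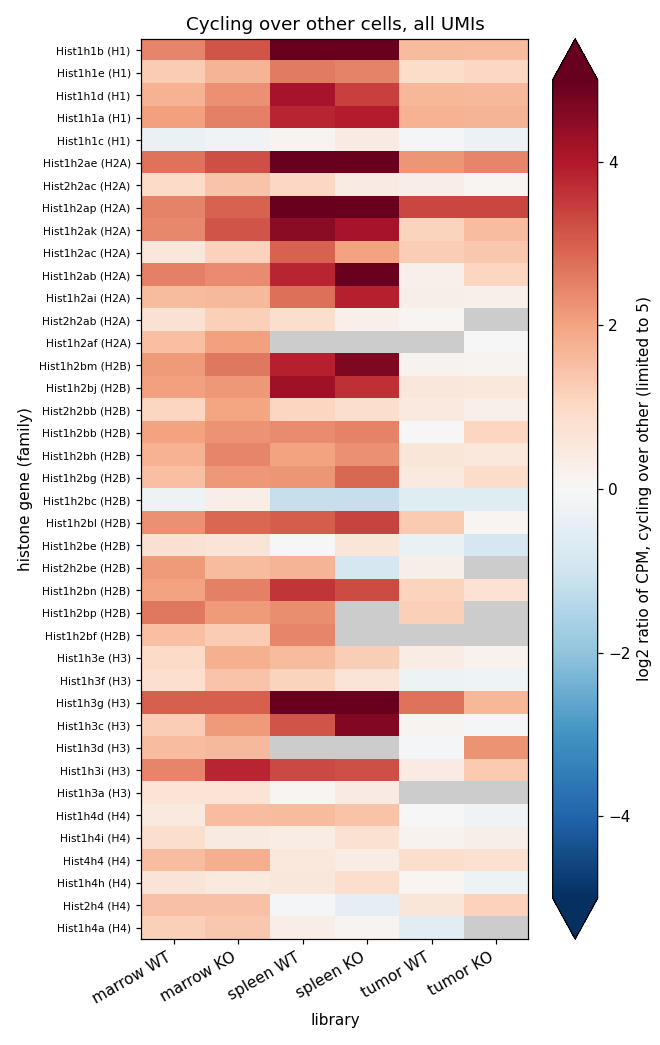
Log2 ratio of CPM in cycling over other cells (all UMIs, colour limited to 5 on either side, grey where under 30 UMIs) for the 40 named histone genes by library. Hist1h2ae, Hist1h1b, Hist1h2ap and Hist1h3g are red in all 6 columns, whereas Hist1h1c and Hist1h2bc stay near or below 0.

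Among the linker genes, Hist1h1b (H1f5 in RefSeq) had 290 CPM in cycling and 53.7 CPM in other marrow cells labelled WT, and 252 and 28.4 CPM labelled KO. In spleen it had 294 and 8.71 CPM labelled WT, and 160 and 3.28 CPM labelled KO. In tumor it had 86.2 and 29.1 CPM labelled WT, and 92.4 and 31.7 CPM labelled KO. Hist1h1b was thus much higher in cycling cells in spleen, at a ratio of 33.7 (29.5 to 38.6) labelled WT, and had its smallest ratios in tumor, 2.96 and 2.92. Hist1h1a (H1f1), the least abundant of the 5 named linker genes in tumor, had 86.5 and 21.1 CPM in marrow labelled WT, 82.7 and 14.5 CPM labelled KO, and 8.51 and 2.54 CPM in tumor labelled WT. Its ratio was 4.09 and 5.70 in marrow and 3.35 and 3.21 in tumor, or 2.60 and 4.21, and 2.44 and 3.70, at matched depth, so a low level in tumor went with a clear difference between the cell groups. Hist1h1d (H1f3) had ratios of 3.35 and 4.91 (marrow), 17.5 and 10.6 (spleen) and 3.12 and 3.10 (tumor). Hist1h1e (H1f4) had lower ratios with all UMIs, at 2.38 and 3.24, 5.99 and 5.61, and 1.91 and 2.05 in the same order, with 2.57 and 3.29 in tumor at matched depth.

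Hist1h1c (H1f2) was the linker gene whose level hardly differed between cycling and other cells. It had 49.2 CPM in cycling and 61.5 CPM in other marrow cells labelled WT, and 52.1 and 59.5 CPM labelled KO. In spleen it had 74.2 and 67.1 CPM labelled WT, and 68.3 and 51.7 CPM labelled KO. In tumor it had 23.6 and 25.1 CPM labelled WT, and 23.9 and 29.4 CPM labelled KO. Cycling cells were the lower group in marrow and tumor and the higher one in spleen, never by 2-fold. At matched depth the marrow and tumor ratios turned above 1, to 1.20 and 1.21 in marrow and 1.46 and 1.17 in tumor, so the small direction depends on depth. Hist1h1c held 21.7% of all histone UMIs in other spleen cells labelled WT and 4.09% in cycling ones. The core genes had 184 CPM in those other cells and 1059 CPM in cycling ones, and the linker genes together 125 and 753 CPM.

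The promoters of these 5 linker genes are shown because these neighbours on chromosome 13 gave such different patterns. Each line holds the 130 bases before the RefSeq gene start on GRCm38.p6, 5′ to 3′ on the gene's strand, and capitals mark matches, searched on both strands, to the letters CCAAT (which reads ATTGG on the opposite strand), then the TATA motif TATAAA, and lastly a motif known from H1 promoters, AAACACA.
Hist1h1b, minus strand, chr13:21780626-21780755: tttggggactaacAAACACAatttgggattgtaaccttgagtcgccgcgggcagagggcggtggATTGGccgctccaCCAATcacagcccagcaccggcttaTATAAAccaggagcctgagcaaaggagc
Hist1h1e, minus strand, chr13:23622559-23622688: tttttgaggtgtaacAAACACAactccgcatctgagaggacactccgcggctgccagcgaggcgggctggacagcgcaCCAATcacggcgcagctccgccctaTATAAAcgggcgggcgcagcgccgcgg
Hist1h1d, plus strand, chr13:23554902-23555031: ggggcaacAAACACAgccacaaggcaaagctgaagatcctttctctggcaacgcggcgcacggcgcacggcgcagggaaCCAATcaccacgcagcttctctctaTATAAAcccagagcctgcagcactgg
Hist1h1a, plus strand, chr13:23763538-23763667: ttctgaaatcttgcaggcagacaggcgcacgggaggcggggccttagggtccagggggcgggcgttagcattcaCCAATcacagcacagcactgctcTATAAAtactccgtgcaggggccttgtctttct
Hist1h1c, plus strand, chr13:23738677-23738806: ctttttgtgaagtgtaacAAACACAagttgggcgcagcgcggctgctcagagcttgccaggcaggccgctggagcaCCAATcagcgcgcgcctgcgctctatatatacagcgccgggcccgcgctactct
All 5 windows held CCAAT, Hist1h1b 2 times. AAACACA was in all but that of Hist1h1a, and TATAAA in all but that of Hist1h1c. Over windows of 250 bases before to 50 after the start, which RefSeq gave for 62 of the 67 members, CCAAT was in every H1, H2A, H2B and H3 promoter, in 3 of 12 H4 promoters and in 37.4% of all 32851 promoters. TATAAA was in 35 of 62 members and 13.6% of all promoters. AAACACA was in 5 of 6 H1 promoters and 7.18% of all. The octamer ATTTGCAT, searched on both strands, was in 7 of 18 H2A and 7 of 16 H2B promoters, in none of H1, H3 or H4, and in 1.74% of all. A match is only a match of letters.

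Hist1h2ae, an H2A gene, was the member with the most UMIs in both marrow and tumor. It had 737 CPM in cycling and 113 CPM in other marrow cells labelled WT, and 777 and 84.2 CPM labelled KO. In spleen it had 541 and 11.3 CPM labelled WT, and 337 and 9.15 CPM labelled KO. In tumor it had 94.2 and 20.1 CPM labelled WT, and 100.1 and 18.3 CPM labelled KO. Its share of all histone UMIs in cycling cells labelled WT was 37.5% for marrow, 29.9% for spleen and 21.9% for tumor. The ratios were 6.53 and 9.22 (marrow), 47.9 and 36.9 (spleen) and 4.67 and 5.48 (tumor). At matched depth they were 3.33 and 5.30, 38.3 and 33.6, and 3.29 and 4.46. Hist1h2ap had ratios of 5.59 and 7.62, 37.2 and 43.5, and 10.2 and 10.2, the highest in tumor among named members with all UMIs, and 2.75 and 5.24 there at matched depth, with the limit on near-identical copies given above. Hist1h2ak was at 5.32 and 8.94, 22.7 and 17.4, and 2.18 and 2.92. By contrast Hist2h2ac, an H2A gene on chromosome 3, was at 1.94 and 2.68 (marrow), 2.05 and 1.33 (spleen) and 1.26 and 1.06 (tumor), the last 2 being 2.09 and 1.504 at matched depth.

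Among H2B genes, Hist1h2bm, the example from the chromosome 13 cluster with the highest marrow level, had 19.7 and 4.53 CPM in marrow labelled WT and 3.67 and 3.21 CPM in tumor labelled WT. Its ratios were 4.35 and 6.20 in marrow and 1.14 and 1.11 in tumor with all UMIs, and 2.83 and 5.04 in marrow and 1.91 and 2.93 in tumor at matched depth, the tumor values from 13 and 14 UMIs in cycling cells. Hist1h2bj was at 4.11 and 4.48 in marrow and at 1.499 and 1.44 in tumor with all UMIs, and its tumor intervals included 1. Hist1h2bc had lower CPM in cycling cells in 5 of 6 libraries with all UMIs. Its ratios were 0.838 and 1.25 (marrow), 0.454 and 0.451 (spleen) and 0.656 and 0.654 (tumor), from 10 to 400 UMIs in cycling cells. At matched depth it was lower in 3 of 6, and its ratio turned to 1.08 in spleen labelled WT and 1.80 in tumor labelled KO, from 4 and 8 UMIs in cycling cells.

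Among H3 genes, Hist1h3e had the highest level and the weaker tie, with 78.4 and 40.8 CPM in marrow labelled WT, 64.3 and 18.7 CPM labelled KO, and 11.1 and 8.66 CPM in tumor labelled WT. Its tumor ratios were 1.28 and 1.12 with all UMIs and 2.06 and 2.59 at matched depth. Hist1h3g, with a rarer stem-loop form, was far lower and far more selective. It had 20.7 and 2.62 CPM in marrow labelled WT, 14.6 and 0.391 CPM in spleen labelled WT and 1.35 and 0.208 CPM in tumor labelled WT. The ratios of Hist1h3g were 7.90 and 7.95 (marrow), 37.3 and 109 (spleen) and 6.49 and 3.19 (tumor). The 109 rests on 2 UMIs in other cells, and at matched depth tumor labelled WT was at 1.56, from 4 UMIs in cycling cells. The H4 genes had the smallest family ratio in marrow and spleen. Hist1h4d, the H4 gene with the most UMIs, was at 1.39 and 2.89 (marrow), 2.99 and 2.69 (spleen) and 1.01 and 0.892 (tumor), and in tumor at 1.65 and 1.48 at matched depth. Hist1h4i was at 1.85 and 1.35, 1.29 and 1.70, and 1.12 and 1.23. Hist2h4 was higher in cycling marrow cells, at 2.74 and 2.78, and at 0.936 and 0.742 in spleen, which were 1.10 and 0.375 at matched depth.

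In marrow and spleen, cells with more Mki67 and Top2a UMIs had more histone UMIs at each step, at 2000 UMIs per cell. In marrow labelled WT the summed level was 891 CPM in cells with 0 marker UMIs, 1700 with 1, 2461 with 2, 3458 with 3 to 5 and 4211 CPM with 6 or more. Marrow labelled KO went from 636 through 1593, 2442 and 3605 to 5129 CPM. Spleen labelled WT began lower, at 345 CPM, and ended as high, at 5143 CPM. Spleen labelled KO went from 296 through 383, 1460 and 3706 to 4429 CPM. Of its 330 cycling cells, 218 had 1 marker UMI, at 383 CPM, against 215 of 402 labelled WT, at 828 CPM. The marrow and spleen libraries thus met at the highest marker counts although they began apart. Tumor began at 260 and 253 CPM and did not reach the others: it had 1059 and 1223 CPM with 3 to 5 marker UMIs, and 947 and 909 CPM with 6 or more, in bins of only 47 and 22 cells. Without these 2 bins the tumor levels also went up at every step. The share of cells with any histone UMI at this depth was 81.3% and 80.4% of cycling marrow cells, 67.9% and 48.8% of cycling spleen cells and 53.1% and 55.9% of cycling tumor cells. In other cells it was 65.1% and 53.4% (marrow), 44.0% and 41.3% (spleen) and 35.2% and 36.0% (tumor). The parts of free RNA, of missed cycling cells and of transcription outside division in the share of other cells were not tested.

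**Figure D3:**
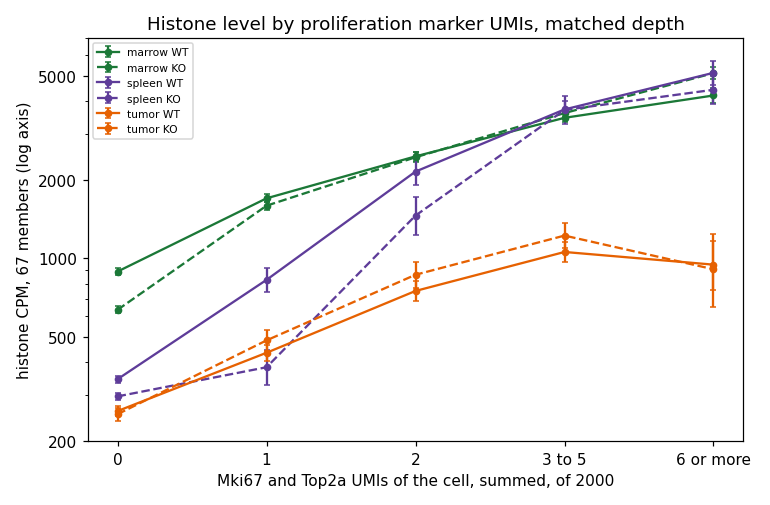
Summed histone CPM (log axis) of cells grouped by their Mki67 and Top2a UMIs among 2000, per library, with 95% counting intervals. Marrow and spleen lines rise to between 4211 and 5143 CPM, whereas tumor lines stay at or under 1223 CPM.

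Cycling cells were then split by which of 2 gene lists led in UMIs, a DNA replication list (S-leading) or a mitosis list (G2M-leading). Both groups had passed the Mki67 and Top2a rule and were not matched for those UMIs, with which histone levels rose. Genes of the replication list were also counted in other cells, Dut at 241 CPM in marrow labelled WT. The lead is thus not a measure of phase, and levels in S phase itself were not tested. With all UMIs, histone CPM was lower in S-leading than in G2M-leading cells in all 6 libraries. The levels were 1834 against 2142 CPM in marrow labelled WT, 1729 against 2216 labelled KO, 1578 against 2216 in spleen labelled WT, 797 against 2302 labelled KO, 409 against 453 in tumor labelled WT and 380 against 521 CPM labelled KO. The ratios ran from 0.346 in spleen labelled KO to 0.903 in tumor labelled WT, and the last was 1.02 at matched depth. The spleen groups also differed in depth, with medians of 7792 and 14454 UMIs per cell labelled WT, and 5988 and 13406 labelled KO. At least 2-fold higher in S-leading cells were 1 of 58 members in marrow labelled WT (2.8% of all genes), 0 of 43 labelled KO (2.45%), 1 of 33 in spleen labelled WT (14.3%), 0 of 30 labelled KO (12.4%), and 0 of 32 and 0 of 29 in tumor (1.04% and 1.11%). At least 2-fold lower in S-leading cells were 1 (2.64%) and 2 (2.44%) of the same members for marrow, 3 (5.63%) and 26 (5.67%) for spleen, and 2 (1.69%) and 3 (1.63%) for tumor. Spleen labelled KO thus stood apart, with 26 of 30 members lower by this call. Hist1h1a was the exception among abundant members. It had 102.8 CPM in S-leading and 65.4 CPM in G2M-leading marrow cells labelled WT, and 101.6 and 58.2 CPM labelled KO. Its ratios of 1.57 (1.48 to 1.67) and 1.75 (1.61 to 1.90) in marrow and 1.91 (1.54 to 2.37) in spleen labelled WT lay on the other side of 1 from those of Hist1h2ae, 0.830, 0.770 and 0.667. In the other 3 libraries the interval for Hist1h1a included 1. Hist1h1b was near level in 5 libraries, from 0.915 to 1.14, and at 0.315 in spleen labelled KO.

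Linker and core genes were compared as shares of all histone UMIs. In cycling cells the linker share was 34.4% (34.2 to 34.7) and 36.1% (35.7 to 36.5) (marrow), 41.6% and 38.1% (spleen) and 52.6% (51.8 to 53.3) and 51.9% (51.0 to 52.7) (tumor). Over all cycling cells, tumor thus had the highest linker share, marrow the lowest. The share also differed between clusters with enough cycling cells, at 2000 UMIs per cell. Marrow clusters ran from 26.7% to 44.0% labelled WT and from 27.0% to 47.7% labelled KO. Tumor clusters ran from 47.4% to 60.2% and from 46.7% to 57.8%, so the ranges overlapped labelled KO. Tissue and cell makeup cannot be told apart in these shares. In other cells the share was 40.3% and 45.7% (marrow), 40.4% and 33.5% (spleen) and 52.2% and 50.3% (tumor). With all UMIs and all members, the linker share was lower in cycling than in other cells in marrow, and about the same in both in tumor. At 2000 UMIs per cell it was 35.1% (34.2 to 36.1) in cycling and 37.0% (35.6 to 38.4) in other marrow cells labelled WT. Labelled KO it was 36.6% and 41.6%. These shares rest on single abundant genes. Without Hist1h2ae the cycling shares were 55.1% and 60.3% in marrow and 67.3% and 66.8% in tumor, and without Hist1h1b they were 23.1% and 26.5% in marrow and 40.7% and 39.3% in tumor. Tumor stayed above marrow in each case. Without Hist1h2ae the order of the cell groups changed. Other marrow cells then held 2306 linker UMIs of 4606 labelled WT and 2050 of 3569 labelled KO, lower shares than in cycling cells. Other tumor cells held 2620 of 4533 and 2352 of 4290, also lower shares than in cycling cells.

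Cycling cells of marrow and tumor were set side by side at 2000 UMIs per cell. Marrow had 2429 CPM and tumor 626 CPM labelled WT, and 2557 and 692 CPM labelled KO, so marrow was 3.88 (3.69 to 4.08) and 3.69 (3.48 to 3.93) times as high. The core genes differed more, at 5.39 and 4.75, than the linker genes, at 2.56 and 2.67. At least 2-fold higher in marrow were 30 of 33 members labelled WT, where 15.9% of all genes tested were, and 23 of 29 labelled KO, where 13.9% were. None was 2-fold lower, where 29.2% and 24.5% of all genes were. The linker genes spanned nearly the whole range. Hist1h1a had 114 CPM in marrow and 9.33 CPM in tumor labelled WT, and 102 and 14.1 CPM labelled KO, a ratio of 12.2 (8.27 to 18.7) and 7.24 (4.80 to 11.4). Hist1h1e had 217 and 143 CPM labelled WT, and 302 and 152 CPM labelled KO, a ratio of 1.52 (1.35 to 1.71) and 1.99 (1.74 to 2.28). Hist1h1b was at 3.11 and 2.75, Hist1h1c at 1.86 and 2.22 and Hist1h2ae at 7.43 and 7.60. The intervals of Hist1h1a and Hist1h1e did not overlap in either genotype. The tissues were enriched in different ways and hold different cell types, so tissue and cell makeup cannot be told apart in these ratios.

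Cells of each tissue were clustered without histone genes, phase genes, Mki67 or Top2a, and clusters are called by their leading genes. In marrow labelled WT the summed level ran from 378 CPM in a cluster led by the plasma cell genes Jchain and Mzb1 to 3249 CPM in a cluster led by H2-Aa and Cd209a. In marrow labelled KO it ran from 276 CPM in a cluster led by the neutrophil genes Ltf and Ly6g to 3163 CPM in a cluster led by the globin genes Hbb-bs and Hba-a1. Unrelated gene sets thus led the clusters at the high end. A cluster led by Prss34, Mcpt8 and Cpa3, genes of basophils and mast cells, was highest among marrow clusters with enough cycling cells. Its cycling cells had 4402 CPM labelled WT and 4818 CPM labelled KO at 2000 UMIs per cell. Those of the H2-Aa and Cd209a cluster were close, at 4118 and 4079 CPM. Only 29.8% and 41.0% of cells in the Prss34 cluster were called cycling at that depth. The Prss34 cluster also had the highest Hist1h1c level of marrow clusters, 166 and 216 CPM over all its cells. In tumor the level ran from 140 and 105 CPM in a cluster led by the stromal genes Mgp and Dcn to 888 CPM in a cluster led by Cd3e labelled WT and 557 CPM in a cluster led by Gzma labelled KO, among clusters with a median of at least 2000 UMIs per cell. The large Acta2 and Myl9 cluster had 293 and 339 CPM, with 27.1% and 28.9% of cells cycling, and the cluster led by Gatm and C1qb, a complement gene of macrophages, 522 and 526 CPM with 29.5% and 27.5% cycling. These clusters had like shares of cycling cells and different histone levels.

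**Figure D4:**
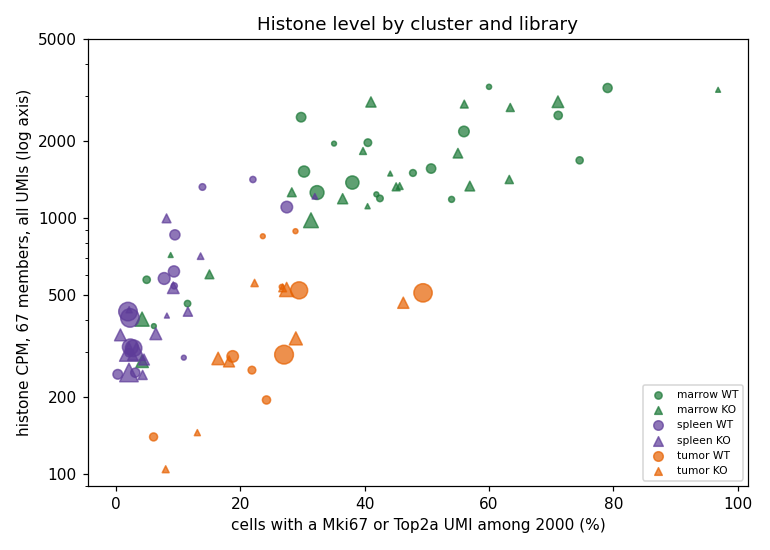
Each point is a cluster in a library (circle WT, triangle KO as labelled, size by cell number, median of at least 2000 UMIs per cell), with the share of cells carrying a Mki67 or Top2a UMI among 2000 (%) against summed histone CPM (log axis). Among clusters with 20% to 50% cycling cells, those of tumor lie at or under 888 CPM and those of marrow between 979.6 and 2836 CPM.

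Libraries labelled KO and WT were compared within a tissue at 2000 UMIs per cell. In cycling marrow cells the summed level was 2429 CPM labelled WT and 2557 CPM labelled KO, a ratio of 1.05 (1.02 to 1.08). It was 0.992 (0.958 to 1.03) without Hist1h2ae and 0.985 with all UMIs, so no direction can be read from it. A difference of 1.5-fold was used as the call, among genes with at least 30 UMIs over both libraries. Labelled KO, 0 of 37 members were higher (4.29% of all genes tested) and 8 lower (4.45%). The 8 were Hist1h3d, Hist1h3i, Hist1h2bc, Hist2h2be, Hist1h2ai, Hist1h2bn, Hist1h3c and Hist1h2bj, all of low count, with 13 to 69 UMIs labelled KO and 23 to 101 labelled WT. With all UMIs 0 of 59 members were higher, against 4.93% of all genes, and 17 lower, against 4.16%. The lowest ratio among the 8 was that of Hist1h3d, with 57 UMIs labelled WT and 21 labelled KO, a ratio of 0.357 (0.205 to 0.598), and 549 and 127 UMIs, or 0.424, without thinning. The median member was at 0.896, against 0.982 for all genes.

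Abundant members differed in both directions and stayed under the call. Hist1h1e had 866 UMIs labelled WT and 1243 labelled KO, or 217 and 302 CPM, a ratio of 1.39 (1.27 to 1.52). Hist1h1d had 373 and 537 UMIs, also 1.39 (1.22 to 1.60), and Hist1h2ae 3486 and 4175 UMIs, 1.16 (1.11 to 1.21). Hist1h1b had 1455 and 1357 UMIs, 0.903 (0.838 to 0.973), so linker genes differed in direction. Across 13 marrow clusters with enough cycling cells, the summed level was higher labelled KO in 5 and lower in 8, from 0.752 to 1.32, and the interval left out 1 in 3 of them. Within clusters Hist1h1e was higher labelled KO in 10 of 13, with a median ratio of 1.42 (range 0.694 to 1.71). Hist1h1d was higher in 10 of 13, with a median of 1.20 (range 0.897 to 2.25). Hist1h1b was lower in 8 of 13, with a median of 0.788 (range 0.352 to 1.26). The median Hist1h1e ratio of the clusters was thus close to its ratio over all cycling cells. Clusters of the same libraries are not replicates. Few genes around the histones passed the call in these cells: 1 of 10 replacement histone genes and 1 of 27 DNA replication genes were higher labelled KO, and 0 of 15 processing, 0 of 16 chaperone and 0 of 29 mitosis genes passed it in either direction.

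**Figure D5:**
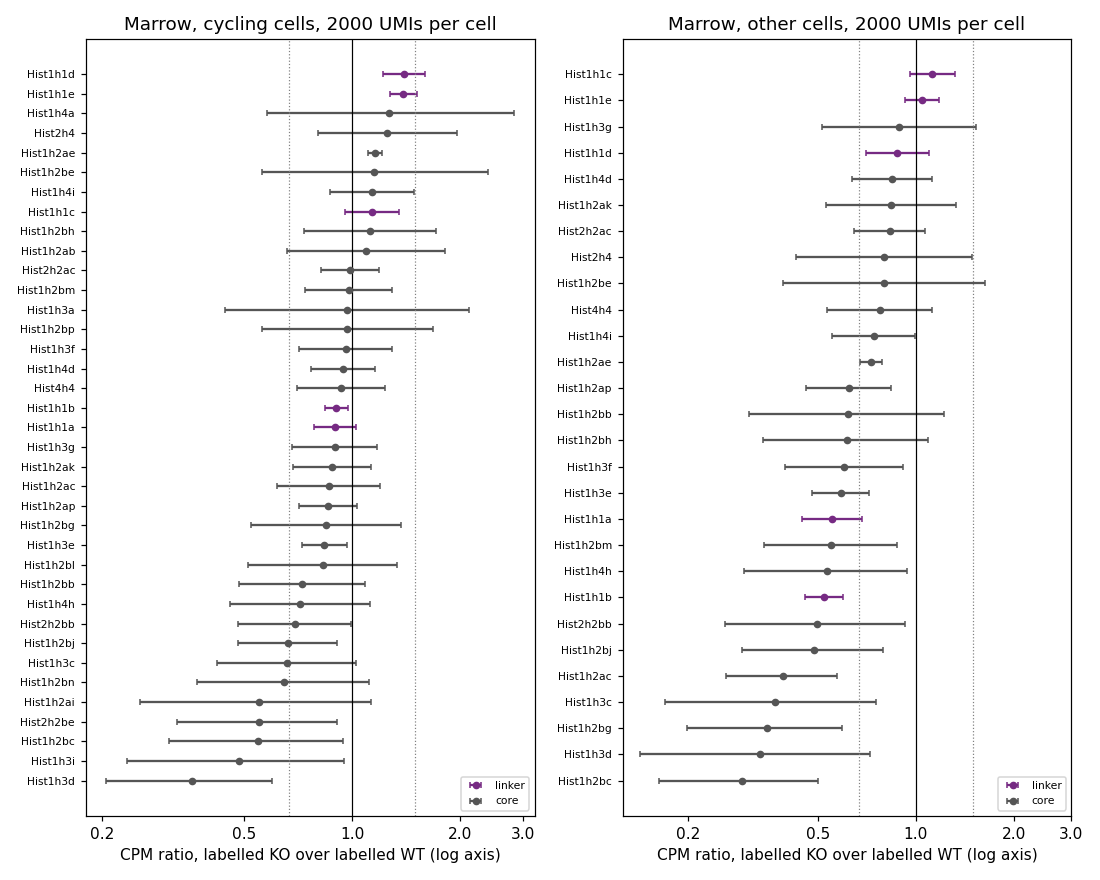
Ratio of CPM in the marrow library labelled KO over that labelled WT (log axis) for each histone gene tested, in cycling and other cells at 2000 UMIs per cell, with 95% counting intervals and dotted lines at 1.5-fold. Hist1h1e and Hist1h1d lie highest in cycling cells, at 1.39, and most genes lie below 1 in other cells.

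In marrow cells not called cycling, histone levels were lower in the library labelled KO. The summed level was 891 CPM labelled WT and 636 CPM labelled KO, a ratio of 0.714 (0.684 to 0.744), with 0 of 28 members at least 1.5-fold higher (7.48% of all genes) and 16 lower (11.5%). The median member was at 0.615 and the median of all genes at 0.893. Hist1h1b had 566 UMIs labelled WT and 371 labelled KO, a ratio of 0.524 (0.458 to 0.598), Hist1h1a 225 and 156, or 0.554 (0.449 to 0.682), and Hist1h2bc 52 and 19, or 0.292 (0.163 to 0.502). Hist1h1e, with 480 and 626 UMIs, and Hist1h1c, with 271 and 381, were instead level, at 1.04 (0.924 to 1.18) and 1.12 (0.959 to 1.32). The cell makeup of these libraries also differed, and its part in the lower level was not tested. A pair of neutrophil-gene clusters, led by Ltf and Ly6g and by Cstdc4, Retnlg and Cxcr2 and picked after their levels were seen, held 10.4% of other marrow cells labelled WT and 24.6% labelled KO. Their histone levels were low, at 400 and 553 CPM labelled WT and 262 and 376 CPM labelled KO. With the same cluster weights in both libraries the summed ratio was 0.810, and with TMM scaling, which centres the other genes, it was 0.798. In the Ltf cluster 65 of 130 cells labelled WT and 179 of 472 labelled KO had a histone UMI at 2000 UMIs per cell, and in the other cluster 97 of 161 and 178 of 355.

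In cycling spleen cells the summed level was 2029 CPM labelled WT, from 402 cells, and 1232 CPM labelled KO, from 330 cells, a ratio of 0.607 (0.558 to 0.661). Of 14 members tested, 0 were at least 1.5-fold higher (20.5% of all genes) and 6 lower (9.45%): Hist1h1b at 0.497 (0.391 to 0.628), Hist1h1e at 0.511, Hist1h2ae at 0.540, Hist1h1d at 0.548, Hist1h2ak at 0.580 and Hist4h4 at 0.665. Of the mitosis list, 13 of 28 genes were lower as well, with a median of 0.683, so markers of division moved with the histone genes. Split by marker UMIs, cells labelled WT and KO had 828 and 383 CPM with 1, and 2152 and 1460 CPM with 2. They had 3723 and 3706 CPM with 3 to 5, and 5143 and 4429 CPM with 6 or more. Where cells had to hold a UMI of both Mki67 and Top2a, the ratio was 0.930, with TMM scaling over cells called by either marker it was 0.528, and in the first case none of the tested members was 1.5-fold apart. In other spleen cells the ratio was 0.859 (0.822 to 0.898), with 1 of 30 members higher (8.49%) and 6 lower (6.96%).

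In tumor the libraries differed less. Cycling cells had 626 CPM labelled WT and 692 CPM labelled KO, a ratio of 1.11 (1.03 to 1.19), which was 1.004 at 1000 UMIs and 1.01 at 4000 UMIs per cell. Of 14 members, 3 were at least 1.5-fold higher (7.77%), Hist1h3f, Hist1h4d and Hist1h1a, and 1 lower (10.3%), Hist4h4. Hist1h4d had 55 UMIs labelled WT and 52 labelled KO, a ratio of 1.60 (1.08 to 2.39), and Hist4h4 38 and 10, or 0.446 (0.198 to 0.913). These 2 genes encode H4 and went in opposite directions. Hist1h4d was also higher in other tumor cells, with 78 and 103 UMIs, a ratio of 1.79 (1.32 to 2.44), where 2 of 18 members were higher (7.16%) and 2 lower (8.19%). The intervals of Hist1h3f and Hist1h1a in cycling cells included 1. In the 4 tumor clusters with enough cycling cells the summed level was higher labelled KO in each, by 1.06 to 1.22, and the interval left out 1 in 1 of them. The sum over other tumor cells was at 0.973 (0.904 to 1.05).

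Cycling cells made up 43.6% of marrow cells labelled WT and 38.9% labelled KO at 2000 UMIs per cell, 6.30% and 4.89% in spleen, and 29.9% and 25.4% in tumor. With all UMIs the shares were 70.1% and 54.8%, 8.53% and 7.63%, and 43.8% and 36.5%. The share was lower labelled KO in each tissue at 2000 UMIs, although at 4000 UMIs marrow was at 58.8% labelled WT and 61.7% labelled KO.

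Other genes of the histone pathway gave a scale for these ratios, with all UMIs. Replacement histones are also made outside S phase, mostly from genes with ordinary polyadenylated mRNAs. Cenpa is on both this list and the mitosis list. At least 2-fold higher in cycling cells were 2 and 3 of 11 tested in marrow, 6 and 6 of 10 in spleen and 3 and 4 of 10 in tumor. Of the 4 with the most UMIs, H2afz, which encodes H2A.Z, was higher, at 1.81 and 1.95 (marrow), 4.56 and 3.51 (spleen) and 2.26 and 2.10 (tumor). H3f3a, which encodes the replacement histone H3.3, was level in all 6, from 0.887 to 1.03, as was H3f3b, from 0.957 to 1.21. H2afy, a macroH2A gene, was at 1.28 to 1.43. In tumor, the H2afz ratios were thus close to those of the summed replication-dependent genes with all UMIs, 2.06 and 2.002. At matched depth the summed ratios were 2.41 and 2.74, and H2afz was not compared there. Of the processing and transcription list, 1 and 2 of 16 and 15 genes passed in marrow, 4 and 2 of 15 and 16 in spleen and 0 of 15 in each tumor library. Slbp was at 1.89 and 2.18, 2.46 and 1.99, and 1.46 and 1.45, Eri1, an exonuclease that trims these mRNAs, at 1.91 and 2.07, 2.51 and 2.09, and 1.60 and 1.62, and Cpsf2 and Ncbp2 between 1.27 and 2.07. Of 16 chaperone genes, 2 and 8 passed (marrow), 7 and 5 (spleen) and 4 and 4 (tumor), with the FACT subunit Ssrp1 at 1.65 to 2.27, Nap1l1 at 1.40 to 2.12, Rbbp7 at 1.31 to 1.96 and Rbbp4 at 1.23 to 1.82. Of 27 DNA replication genes, 12 and 23 passed (marrow), 25 and 23 (spleen) and 17 and 22 (tumor), with Rrm2 at 3.23 to 117, Dut at 1.32 to 5.23 and Pcna at 1.61 to 2.33. Of 29 mitosis genes 28 or 29 passed in every library. Ube2c was at 8.22 to 143, Birc5 at 6.34 to 137, Cenpa, the centromeric H3, at 3.13 to 6.50 and Cks2 at 1.35 to 3.95. No tested gene of these lists was 2-fold lower in cycling cells.

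Transcript ends were described last, since the assay depends on them. An annotated transcript with a poly(A) signal in its last 60 bases was found for 17 members, which held 42.7% of histone UMIs, a stem-loop without that signal for 32 members with 35.9%, and neither for 18 members with 21.4%. Members with a poly(A) signal include Hist1h2ae, the gene with the most UMIs, as well as Hist1h1c, Hist1h4i and Hist1h4h, which with all UMIs were 2-fold higher in cycling cells of no library. The median ratio of cycling to other cells in that class, with all UMIs, was 2.29 and 2.66 (marrow), 1.29 and 1.31 (spleen) and 1.17 and 1.23 (tumor). For members with the stem-loop only it was 2.84 and 3.45, 5.18 and 5.20, and 1.27 and 1.67. For members with neither, Hist1h1b and Hist1h1a among them, it was 3.99 and 4.90, 8.24 and 9.95, and 1.77 and 1.42. These classes describe the annotation, and a stem-loop beyond an annotated end would be missed. Hist1h2bl, with neither, was annotated at 381 bases, against 463 for Hist1h2bj, an H2B gene with a stem-loop. Conversely, Hist1h1d, with the stem-loop only, had 4884 annotated bases after it. The poly(A) class had the lowest median in each of the 6 libraries, yet each class in each library spanned genes from at most 1.25 to at least 3.21, so classes overlapped widely. Only members past the 30-UMI filter enter these medians.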

How the data were processed

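Counts are UMIs per gene and barcode in the matrices that the authors deposited. Cell Ranger 6.1.0 is named per the file headers, and Cell Ranger 6.0.0 with build mm10 per the submitters' processing notes. A 5′ kit and also a v3 3′ kit appear in the labels' protocols, so the end that was read is not settled. In 3 libraries 19 antibody features with 1 to 3 counts per library were left out. Cells were kept with at least 300 genes, 500 UMIs and at most 10% mitochondrial UMIs, and doublets were removed by simulated-doublet scores at 0.8% per 1000 barcodes with scanpy 1.11.5. Clusters used 2000 variable genes, 30 principal components, 15 neighbours and Leiden resolution 1 with 10 iterations, per tissue. Counts of a cell group were summed and divided by its total (CPM). Intervals are exact: Poisson for levels, conditional binomial for ratios and Clopper-Pearson for shares, at 95%. No fold is given against a count of 0, with a floor of 3 counts. Random draws to 1000, 2000 or 4000 UMIs per cell used fixed seeds. Scaling alternatives used edgeR 4.0.16. Members with at least 200 UMIs over marrow and tumor, and the 4 genes with the most UMIs of each list, are named. Poisson counts were simulated, with changes put into random subsets of genes with at least 30 expected UMIs. Of these subsets, 3-fold changes were recovered in 100%. Changes of 2.5-fold between cycling and other cells were recovered in 97% (marrow) and 99% (tumor), and 2-fold changes of KO against WT in 98%. Genes tested numbered 13008 and 13251, and 9838 and 9729. Unchanged genes were called in 0.176% to 1.66%. The simulation held no variation between cells or libraries, so it checks the calculation only. The intervals held the true value in 95.4% to 96.8%. Transcripts are from GENCODE (67 of 67 members matched by gene ID) and promoters from RefSeq. The members and gene lists were chosen with earlier results of these data known.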

Additional observations from a re-analysis of the deposited data

Results flagged for a closer look

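The summed histone level in cycling cells, library labelled KO over library labelled WT at 2000 UMIs per cell, went in opposite directions in different tissues. It was 1.05 in marrow and 0.607 in spleen, and 0.607 in spleen against 1.11 in tumor. Each value compares 1 library with 1 library, and the difference between tissues was not tested. The spleen value was 0.930 where a cell had to hold a UMI of both Mki67 and Top2a, and the marrow and tumor values came to 0.992 and 1.01 at 4000 UMIs per cell.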

How the results depend on the processing

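No paired analysis was possible because each tissue and genotype has 1 library. Values are in the order marrow, spleen, tumor, labelled WT before KO. Values for named genes were counted with linker shares of other cells and with counts of members higher or lower labelled KO. Of these, 369 moved, 1539 did not and 9 turned direction. Moving meant leaving the counting interval or, for counts of members, a change of more than 1.5-fold. Members of low count rest on few UMIs, and the marker rule called more cells cycling at greater depth. Unfiltered counts of members include those with very few UMIs. Unless given above, the share of all genes under an alternative is not given. Such counts are therefore not read as results about the members. Alternatives that drop Hist1h2ae were chosen after seeing the data. The cause of the changes was not tested.

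Cycling over other cells was 3.51, 4.18, 8.97, 8.24, 2.65 and 2.99 with a UMI of each marker and 3.53, 4.44, 8.38, 7.87, 2.72 and 2.87 with at least 3. Thinned to 2000 UMIs it was 2.73, 4.02, 4.16 (spleen KO), 2.41 and 2.74. With TMM scaling it was 3.56, 4.41 and 6.17 (spleen WT), with doublets kept 5.67 and 5.15 in spleen, and without Hist1h2ae 2.65, 3.51, 4.26, 3.54, 1.78 and 1.69. Members at least 2-fold higher numbered 27, 18, 11 and 8 thinned (marrow WT, spleen, tumor KO), 44, 41 and 17 unfiltered (spleen, tumor WT) and 25, 5 and 7 with a pseudocount of 1 CPM (marrow WT, tumor).

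S-leading over G2M-leading was 0.841, 0.744, 0.606, 0.280, 1.02 and 0.768 thinned, 0.788, 0.685, 0.659, 0.295, 0.763 and 0.537 with a stricter lead, and 0.480 in spleen KO with doublets kept. The linker share of cycling cells was 35.1%, 36.6% and 50.7% (marrow, tumor KO) thinned, 23.1%, 26.5%, 30.3%, 29.4%, 40.7% and 39.3% without Hist1h1b, and 55.1%, 60.3%, 59.3%, 51.7%, 67.3% and 66.8% without Hist1h2ae. The cycling share was 28.7%, 26.4%, 3.47%, 2.80%, 19.3% and 16.3% at 1000 UMIs, 58.8%, 61.7%, 14.9%, 9.30%, 40.4% and 34.2% at 4000, 70.1%, 54.8%, 8.53%, 7.63%, 43.8% and 36.5% with all UMIs, and 14.7%, 14.0%, 1.91%, 0.949%, 7.81% and 6.23% with both markers.

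KO over WT in cycling cells was 1.01, 0.685 and 1.004 at 1000 UMIs, 0.992 (marrow) and 1.01 (tumor) at 4000, 0.985 and 0.711 (marrow, spleen) with all UMIs, 1.10 and 0.930 with both markers, and 0.999997 and 0.681 with equal cluster weights. In spleen it was 0.528 with TMM and 0.678 with doublets kept, and in marrow 0.992 without Hist1h2ae. In other cells it was 0.798 and 0.770 with TMM (marrow, spleen), 0.810 and 0.875 with equal weights (marrow, tumor), 0.802 and 1.15 at 1000 UMIs (spleen, tumor), 0.995 in spleen at 4000 and 1.07 in tumor with all UMIs. Members 1.5-fold apart in cycling cells numbered 2 and 0 at 1000 UMIs (marrow, tumor), 10 and 2 at 4000 (spleen, tumor), 17 and 11 with all UMIs (marrow, spleen), 0 and 2 with both markers (spleen, tumor), 24, 26 and 36 unfiltered and 5 with a pseudocount (marrow). In other tumor cells they numbered 7, 8 and 2 at 1000 UMIs, with all UMIs and with doublets kept.

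Directions turned for Hist1h2bc, cycling over other, in spleen WT thinned (1.08) and Hist1h2bf in tumor KO with both markers (0.953). For KO over WT they turned for Hist1h2bj in cycling marrow at 1000 UMIs (1.05), for Hist1h2ak in cycling spleen at 1000 UMIs, 4000 UMIs and with both markers (1.47, 1.06 and 1.14), for Hist1h1d there with both markers (1.13), and in other tumor cells for Hist1h2ap at 1000 UMIs (1.02) and Hist1h2bc with all UMIs (1.03).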
